A study of Saccharomyces cerevisiae with 21 samples.

Results

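Glycogen is the branched glucose polymer that budding yeast stores as a reserve of carbohydrate. The 10 genes described here encode the enzymes that build it and break it down, with the subunits that steer its phosphatase: GLG1 (YKR058W), GLG2 (YJL137C), GSY1 (YFR015C), GSY2 (YLR258W), GLC3 (YEL011W), GPH1 (YPR160W), GDB1 (YPR184W), GAC1 (YOR178C), PIG2 (YIL045W) and PGM2 (YMR105C). They were taken by name, and are 10 of the 5408 named genes on the arrays. Each has 1 probe on each array type.

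In each of 4 radiation series, mRNA of irradiated Saccharomyces cerevisiae strain S288C was labelled with Cy5 and hybridised together with Cy3-labelled mRNA of an unirradiated control culture, on 3 arrays per radiation. The thermal neutron cells received 20.8 Gy over 20 h in a reactor beam, as 2 ml of cold saline in cuvettes. Only 1.0 to 2.0 of the total of 17 mGy/min came from thermal neutrons themselves, and the control cells of this series stood in tissue culture flasks. The carbon ion cells received 25 Gy at 290 MeV/u in 10 min at 3 Gy/min, as 5 ml of saline in flasks, with controls in the same kind of vessel. The gamma ray cells received 17 Gy from a Cs-137 source and were held for 20.5 h as 2 ml of saline in cuvettes, like their controls. The gamma ray labels also state 1.4 Gy/min, at which 17 Gy needs 12.1 min. The fast neutron cells received 20.3 Gy, out of a total dose of 21.4 Gy in 336 min at 0.064 Gy/min, and were held for 19 h as 2 ml of saline in cuvettes, with controls in flasks. For both neutron series the culture text of the labels speaks of heavy ions, while the titles and treatment text name neutrons, which was followed here. All cultures, controls included, were chilled without food and then given 50 ml of fresh YPD, a rich glucose medium, for 40 min at 25 C before RNA was taken. Radiation, facility, holding time, vessel and hybridisation series cannot be told apart, and the doses differ.

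Yeast fills its glycogen store when nutrients run short and empties it when growth resumes. The glycogenins Glg1 and Glg2 prime a new molecule by adding glucose to themselves, the synthases Gsy1 and Gsy2 lengthen its chains from UDP-glucose, and the branching enzyme Glc3 adds side chains. Breakdown runs through the phosphorylase Gph1 and the debranching enzyme Gdb1. Synthase is active when it is dephosphorylated by the Glc7 phosphatase, which Gac1 and Pig2 bring to it, and Pgm2 interconverts glucose-1-phosphate and glucose-6-phosphate at the junction with glycolysis.

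Values below are log2 ratios of irradiated over control, so that 0 is no difference and 1 is a doubling. The ratio was read as irradiated over control from the channel order in the labels. HUG1, which is induced by DNA damage, lay between 1.52 and 3.42 on all 12 arrays in this direction. Dyes were not swapped, so a probe's own dye effect is part of each ratio. Replicate arrays correlated across genes with r between 0.73 and 0.86 for thermal neutrons and gamma rays. The third carbon array stood apart from the other carbon arrays (r = 0.50 and 0.44, against 0.71 between the first pair), and its high- and low-power scans correlated at 0.698. The second fast neutron array also stood apart (r = 0.53 and 0.43, with scans at 0.693). The cultures were measured in bulk, so a change in every cell and a change in a fraction of the cells cannot be told apart. The design text states that samples were collected independently.

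Of the 9 glycogen genes that could be tested, 6 rose after thermal neutrons and none fell. Among all 5301 genes tested there, 19.9% were called higher and 21.2% lower at a limma adjusted p under 0.05. After carbon ions 6 of 9 rose and none fell, against a background of 9.70% higher and 11.9% lower among 5095 genes. After gamma rays 8 of 9 rose and none fell, against 17.6% higher and 22.4% lower among 4891 genes. After fast neutrons, measured on another array type, 1 of 10 rose and none fell, against 5.06% higher and 5.92% lower among 4936 genes. The median log2 ratio of the tested glycogen genes was 0.68 after thermal neutrons, 1.14 after carbon ions and 1.95 after gamma rays, while that of all genes was -0.04, -0.04 and -0.06. For fast neutrons it was 0.30, against 0.00 for all genes. No glycogen gene had an unadjusted p under 0.05 in the lower direction in any of the 4 series. The counts rest in part on single arrays of carbon ions and thermal neutrons, whose values are given gene by gene.

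**Figure D1:**
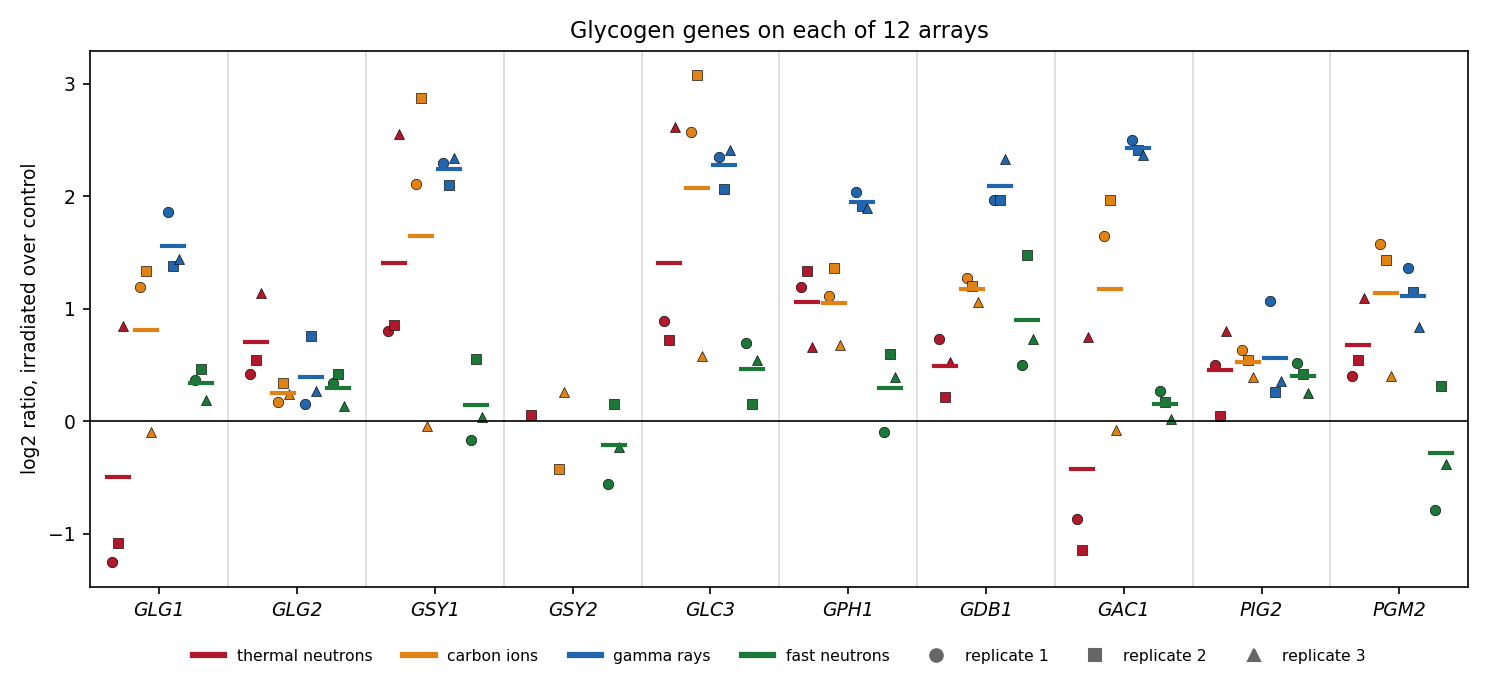
Log2 ratio of irradiated over control (vertical axis) for the 10 glycogen genes (horizontal axis), with 1 point per array and the shape giving the replicate number. Colours stand for the radiations, and a bar is the mean of 3 arrays, drawn where all 3 hold a value. The blue gamma ray points of GSY1, GLC3, GPH1, GDB1 and GAC1 lie between 1.89 and 2.50, while the thermal neutron points of GLG1 and GAC1 lie on both sides of 0.

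Of the genes that build the polymer, GSY1, GLC3 and GLG1 were 1.38 or higher on every gamma ray array and varied widely between the arrays of thermal neutrons and of carbon ions. GSY1, the minor synthase, had log2 ratios of 0.80, 0.86 and 2.55 on the 3 thermal neutron arrays, 2.11, 2.88 and -0.04 on the carbon arrays, and 2.30, 2.10 and 2.34 on the gamma ray arrays. The third thermal array was the high one and the third carbon array the low one, so the groups overlap. The mean was 1.40 ± 0.99 for thermal neutrons (SD, n = 3, limma adjusted p = 0.0281), 1.65 ± 1.51 for carbon ions (adjusted p = 0.0255) and 2.25 ± 0.13 for gamma rays (adjusted p = 0.00265), the last a 4.75-fold rise. The spread in this fit is shared by the 9 arrays of the table, so the gamma ray p-values of genes such as GSY1 carry the scatter of the other arrays.

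GLC3, the only branching enzyme of yeast, ran closely beside GSY1. Its log2 ratios were 0.90, 0.72 and 2.62 after thermal neutrons, 2.57, 3.08 and 0.58 after carbon ions, and 2.35, 2.07 and 2.41 after gamma rays. It was above 0 on all 9 arrays, again with the third thermal array high and the third carbon array low. Its means of 1.41 ± 1.05, 2.08 ± 1.32 and 2.28 ± 0.18 in that order passed the test (SD, n = 3 each; limma adjusted p = 0.0209, 0.00715 and 0.00175).

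GSY2, the main synthase, could not be tested beside GSY1. Its probe gave no value on any gamma ray array, 0.06 on 1 thermal neutron array, and -0.43 and 0.26 on 2 carbon arrays. On the fast neutron arrays, where it was measured throughout, its log2 ratios were -0.56, 0.15 and -0.23, with a mean of -0.21 ± 0.36 (SD, n = 3, limma adjusted p = 0.442). Whether the probes of GSY1 and GSY2, or of other paralogous pairs such as GLG1 with GLG2 and PGM1 with PGM2, tell the copies apart is not given in the sources used here.

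The glycogenins differed from each other. GLG1 had log2 ratios of -1.25, -1.08 and 0.85 after thermal neutrons, 1.19, 1.34 and -0.10 after carbon ions, and 1.86, 1.38 and 1.44 after gamma rays. It rose after gamma rays (1.56 ± 0.26, SD, n = 3, limma adjusted p = 0.00577), and its means of 0.81 ± 0.79 for carbon ions and -0.50 ± 1.17 for thermal neutrons did not pass (adjusted p = 0.123 and 0.292). The thermal mean is the average of 2 arrays far below 0 and 1 well above it.

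GLG2 showed no such split. Its log2 ratios were 0.42, 0.54 and 1.14 after thermal neutrons, 0.17, 0.34 and 0.24 after carbon ions, and 0.15, 0.76 and 0.27 after gamma rays. All 9 values were positive and most were small. It rose after thermal neutrons (0.70 ± 0.39, limma adjusted p = 0.00514, n = 3), while 0.25 ± 0.08 for carbon ions and 0.40 ± 0.32 for gamma rays did not pass (adjusted p = 0.269 and 0.0665). Without the third thermal array its thermal mean was 0.48 (adjusted p = 0.0503).

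The breakdown enzymes were positive on all 9 arrays of the shared table and did not show the wide swings of GSY1 and GLC3. GPH1, the phosphorylase, had log2 ratios of 1.19, 1.33 and 0.66 after thermal neutrons, 1.11, 1.37 and 0.68 after carbon ions, and 2.04, 1.91 and 1.89 after gamma rays. The 3 gamma ray arrays lay above all arrays of the other radiations. The means were 1.06 ± 0.35, 1.05 ± 0.35 and 1.95 ± 0.08 in that order (SD, n = 3 each; limma adjusted p = 0.000413, 0.00146 and 1.2e-05), which are rises of 2.09-fold, 2.07-fold and 3.86-fold.

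GDB1, the debranching enzyme, was ordered by radiation without overlap in the averaged scans. Its log2 ratios were 0.73, 0.22 and 0.53 after thermal neutrons, 1.27, 1.20 and 1.06 after carbon ions, and 1.97, 1.97 and 2.33 after gamma rays. Every carbon array was above every thermal array and below every gamma ray array. In the low-power scans alone the first thermal array, at 1.07, lay above the second carbon array, at 0.94, and the third, at 0.83. The means were 0.49 ± 0.26 (limma adjusted p = 0.0123), 1.18 ± 0.11 (adjusted p = 0.000301) and 2.09 ± 0.21 (adjusted p = 2.5e-06) for n = 3 each. Without the first or without the third thermal array, the thermal mean was 0.37 or 0.47 and did not pass (adjusted p = 0.103 or 0.0553). GDB1 was also the 1 glycogen gene that rose after fast neutrons, where its values were 0.50, 1.48 and 0.73 and its mean 0.90 ± 0.51 (adjusted p = 0.0373). Without the first or without the third fast neutron array its adjusted p was 0.0587 or 0.0886.

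Of the phosphatase subunits, GAC1 had the highest gamma ray mean of the 9 genes, at rank 19 of 4891 genes from the top. Its log2 ratios were -0.87, -1.14 and 0.75 after thermal neutrons, 1.65, 1.97 and -0.08 after carbon ions, and 2.50, 2.41 and 2.37 after gamma rays. The thermal and carbon arrays were split as for GLG1, and the gamma ray arrays lay above both. The gamma ray mean of 2.43 ± 0.07, a 5.38-fold rise, and the carbon mean of 1.18 ± 1.10 passed (SD, n = 3 each; limma adjusted p = 0.000626 and 0.0462). The thermal mean of -0.42 ± 1.02 did not (adjusted p = 0.393).

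PIG2, a related subunit that binds the synthase, moved little. It had log2 ratios of 0.50, 0.05 and 0.80 after thermal neutrons, 0.64, 0.54 and 0.39 after carbon ions, and 1.07, 0.26 and 0.36 after gamma rays. All 9 values were positive and the 3 groups overlapped. Only the gamma ray mean passed (0.56 ± 0.44, n = 3, limma adjusted p = 0.0253), and it did so through its first array, without which the mean was 0.31 (adjusted p = 0.201). The thermal and carbon means were 0.45 ± 0.38 and 0.52 ± 0.12 (adjusted p = 0.0595 and 0.0542), close to the gamma ray mean. With median centring both were called too (limma adjusted p = 0.0445 and 0.0419). With array weights the carbon mean passed (adjusted p = 0.0056) and the gamma ray mean did not (adjusted p = 0.0501).

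PGM2, the major phosphoglucomutase, had log2 ratios of 0.40, 0.54 and 1.10 after thermal neutrons, 1.58, 1.43 and 0.41 after carbon ions, and 1.36, 1.15 and 0.84 after gamma rays. All arrays were positive, with a smaller version of the split. It rose in all 3 series, with means of 0.68 ± 0.37, 1.14 ± 0.64 and 1.11 ± 0.26 in that order (SD, n = 3 each; limma adjusted p = 0.0261, 0.00503 and 0.00217).

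The split between arrays was large for GSY1, GLC3, GLG1 and GAC1. On the third thermal array they lay 1.72, 1.81, 2.01 and 1.76 above the mean of the other 2 thermal arrays, on the log2 scale. On the third carbon array their gap to the mean of the other 2 was -2.53, -2.24, -1.36 and -1.89. The gamma ray arrays showed nothing of the kind, with gaps of the third array of 0.14, 0.21, -0.17 and -0.09 for these genes. GDB1 had gaps of 0.05 for thermal neutrons and -0.18 for carbon ions, and GPH1 was lower on the third array of both, with gaps of -0.60 and -0.56.

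Among the 4703 genes with a value on all 9 arrays, 20 had a value on the third thermal array more than 1 above both other thermal arrays, and a value on the third carbon array more than 1 below both other carbon arrays. Of these, 4 are glycogen genes, and 0 genes had the opposite pattern. The damage-induced genes checked here did not follow it: RNR2, a ribonucleotide reductase subunit, had 1.32, 1.54 and 1.10 on the thermal arrays and 2.27, 2.67 and 2.36 on the carbon arrays. Both laser powers showed it. GSY1 was at 2.72 and 2.38 in the high- and low-power scans of the third thermal array, and at -0.13 and 0.05 in those of the third carbon array. What set these arrays apart was not tested.

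**Figure D2:**
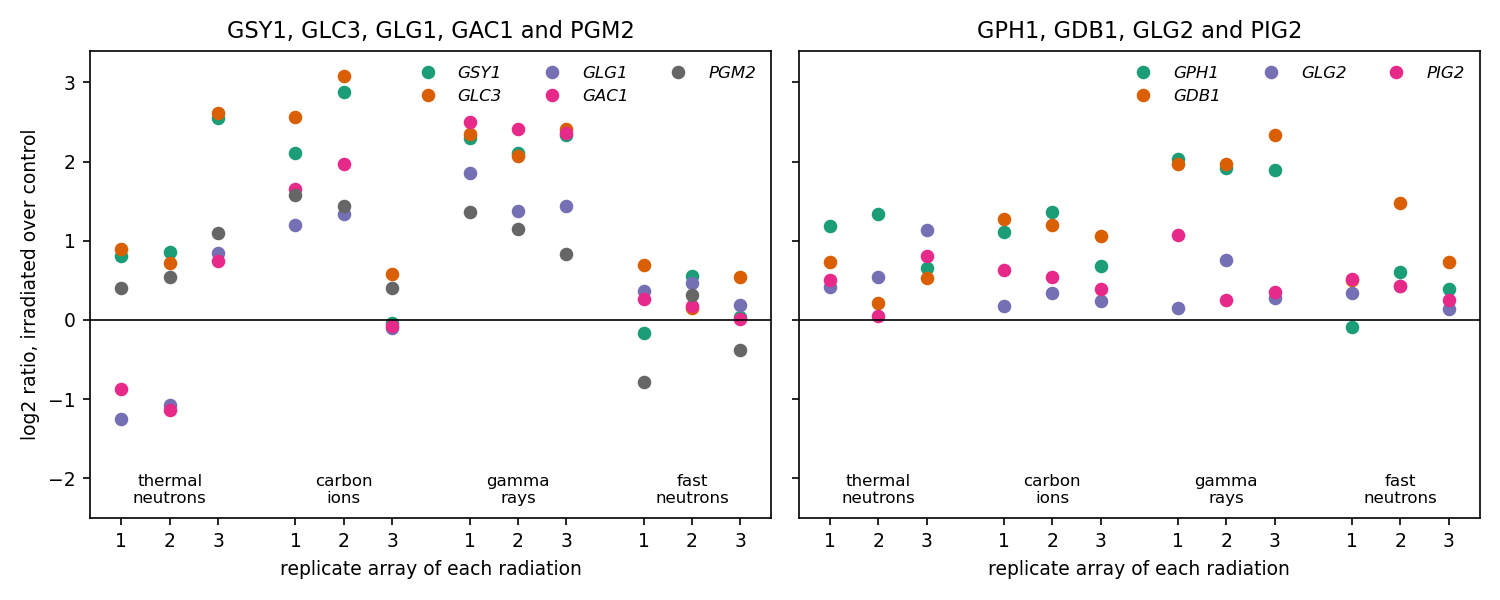
Log2 ratio of irradiated over control (vertical axis) on each replicate array (horizontal axis) of the 4 radiations, with 1 colour per gene. The genes were placed in the left or right panel after their values were seen. On the left, GSY1, GLC3, GLG1, GAC1 and, by less, PGM2 are high on the third thermal array and low on the third carbon array. On the right, the thermal and carbon gaps of the third array are -0.60 and -0.56 for GPH1 and 0.05 and -0.18 for GDB1. They are 0.66 and -0.01 for GLG2 and 0.53 and -0.20 for PIG2. On the third carbon array PIG2 is at 0.12 in the high-power and 0.67 in the low-power scan, so its carbon gap depends on the scan.

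Leaving out the third arrays of carbon ions and thermal neutrons together, an alternative chosen after the values were seen, changed several calls. After thermal neutrons, where 1571 genes in all were then called, GLG1 and GAC1 were lower than control, at -1.17 and -1.01 (limma adjusted p = 0.00088 and 0.0012), and GSY1, GLC3, GPH1 and PGM2 were higher, at 0.83, 0.81, 1.26 and 0.47. GDB1 and GLG2 were no longer called (adjusted p = 0.0554 and 0.0543). For carbon ions 7 of the 9 were then higher, GLG1 among them at 1.27 (adjusted p = 0.00116), with 1193 genes called in all. For gamma rays all 9 were higher, with 2165 called in all. These totals count both directions. Of the genes called, 49.8% after thermal neutrons, 44.4% after carbon ions and 45.2% after gamma rays were higher. With the third thermal array alone left out, GPH1 was the 1 gene still called higher, and GLG1 was called lower (-1.17, adjusted p = 0.0173). With the first or with the second carbon array left out, GSY1, GLC3 and GAC1 were no longer called after carbon ions (adjusted p from 0.0552 to 0.264).

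How the radiations differed was tested within the table they share. Thermal neutrons minus gamma rays was negative for 8 of the 9 genes and passed for 4, none being higher, while 17.8% of 4843 genes were called lower in this difference and 20.4% higher. The median difference was -0.87 for the 9 genes and 0.03 for all genes, and the share of all genes below 0 was not counted. GAC1 differed by -2.85 (limma adjusted p = 0.00184), 7.20-fold lower after thermal neutrons than after gamma rays. GLG1 differed by -2.06 (adjusted p = 0.00853), GDB1 by -1.60 (adjusted p = 9.7e-05) and GPH1 by -0.89 (adjusted p = 0.00906). For these 4 genes no thermal array reached the lowest gamma ray array. That was also so for PGM1, whose difference of -0.17 did not pass (limma adjusted p = 0.401). The share of all genes without overlap was not counted.

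GSY1 and GLC3 differed by -0.84 and -0.87, with 95% intervals from -2.24 to 0.55 and from -2.18 to 0.44, which did not pass. Without the third arrays of carbon ions and thermal neutrons they did, at -1.42 and -1.47 (limma adjusted p = 0.00212 and 0.00111). PGM2 (-0.43, interval -1.10 to 0.23), PIG2 (-0.11, interval -0.66 to 0.44) and GLG2 (0.30, interval -0.19 to 0.80) also did not pass.

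Carbon ions minus gamma rays passed for 2 genes, both lower and both of the breakdown branch, where 9.35% of 4750 genes were called lower and 11.4% higher. GDB1 differed by -0.91 (limma adjusted p = 0.00723) and GPH1 by -0.90 (adjusted p = 0.0178), so each was about 1.9-fold lower after carbon ions. Without the third carbon array GPH1 was at -0.71 (adjusted p = 0.0518). The synthesis genes GSY1 and GLC3 differed by -0.60 (interval -1.997 to 0.80) and -0.20 (interval -1.51 to 1.11), intervals wide enough to hold a large difference either way. GAC1 and GLG1 differed by -1.25 (interval -2.42 to -0.07) and -0.75 (interval -1.87 to 0.37), with adjusted p = 0.123 and 0.326. Without the third arrays of carbon ions and thermal neutrons, GAC1 was called lower beside GDB1 and GPH1, at -0.62 (adjusted p = 0.0415). GLG1 was then at -0.29 and was not called (adjusted p = 0.313).

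Thermal neutrons minus carbon ions passed for GDB1 alone, which was lower (-0.69, limma adjusted p = 0.0392), where 4.37% of 5033 genes were called lower and 5.80% higher. In the low-power scans alone the difference was -0.40 (adjusted p = 0.281). The call was also lost without any 1 of the 3 thermal arrays or the first 2 carbon arrays, with adjusted p from 0.0583 to 0.157. GPH1 had nearly equal means in both series, with a difference of 0.01 and an interval from -0.48 to 0.50. GAC1 and GLG1 differed by -1.60 (interval -2.77 to -0.43) and -1.31 (interval -2.43 to -0.19), with adjusted p = 0.0842 and 0.130. Without the third arrays of both series, GAC1, GLG1, GLC3, GSY1 and PGM2 were called lower after thermal neutrons than after carbon ions, with differences of -2.82, -2.43, -2.01, -1.66 and -1.03, and GDB1 was not (adjusted p = 0.0635).

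**Figure D3:**
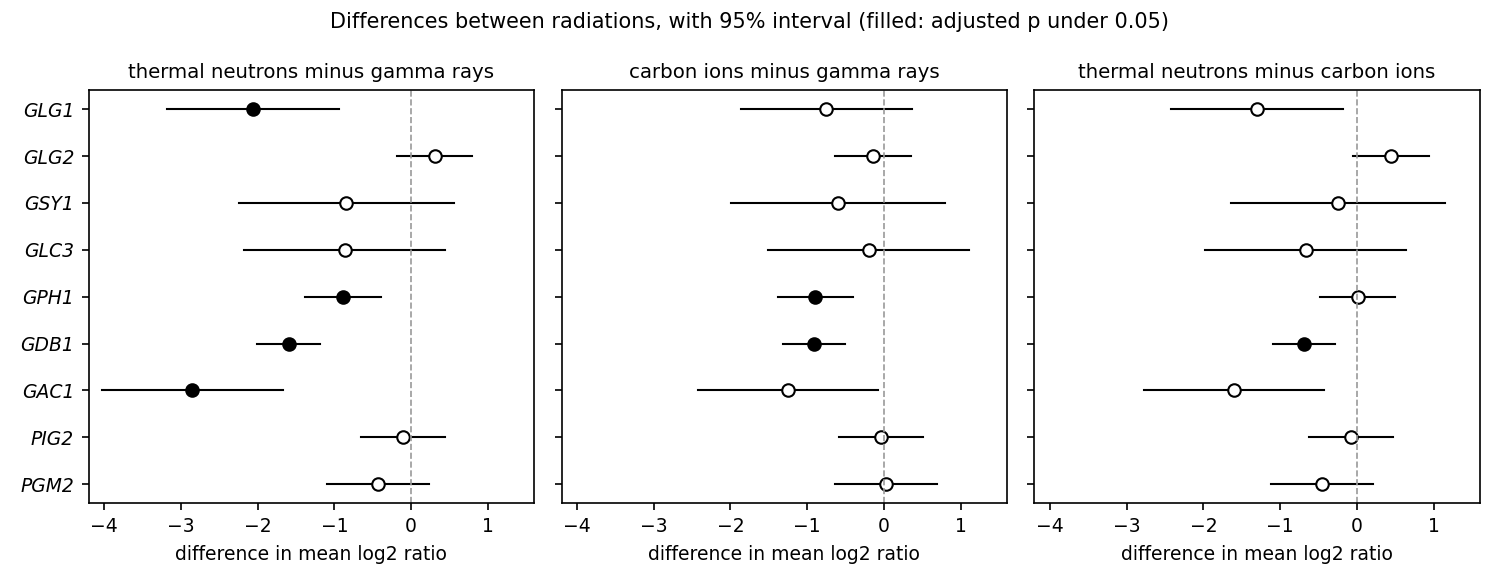
Difference in mean log2 ratio (horizontal axis) between 2 radiations for each glycogen gene (vertical axis), in 3 panels. Points are limma estimates from 3 arrays per radiation, lines their 95% intervals, and filled points have an adjusted p under 0.05. GDB1 has narrow intervals below 0 in all 3 panels, while those of GSY1 and GLC3 span 0 in each.

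Fast neutrons were fitted alone and not tested against the other series. Apart from GDB1, the highest mean was that of GLC3, with log2 ratios of 0.70, 0.15 and 0.55 (mean 0.47 ± 0.28, n = 3, limma adjusted p = 0.106). PIG2 had 0.52, 0.42 and 0.25, GLG1 0.37, 0.47 and 0.19, and GLG2 0.34, 0.42 and 0.13. All were positive in the averaged scans and none was called (adjusted p from 0.12 to 0.22). GAC1, the gene with the highest gamma ray mean, had 0.27, 0.17 and 0.02 here. GSY1 had -0.17, 0.56 and 0.04, and GPH1 -0.09, 0.60 and 0.39. PGM2 had -0.79, 0.31 and -0.38, a mean of -0.28 ± 0.56 (adjusted p = 0.402).

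In the averaged scans, the second fast neutron array was the high one for GSY1, GSY2, GPH1, GDB1, GLG1, GLG2 and PGM2. Without it GLC3 and PIG2 were called higher beside GDB1, and PGM2 and GSY2 were called lower, at -0.58 and -0.40 (limma adjusted p = 0.00252 and 0.0434). The 2 scans of this array also disagreed on GLG2, with -0.33 in the high-power and 1.18 in the low-power scan, the largest such gap among 85 pairs of scans of the glycogen genes. The median gap over those pairs was 0.143. On the second fast neutron array the high- and low-power scans also differed in sign for GLG1 (-0.04 and 0.98) and GLC3 (-0.16 and 0.47). In the high-power scans alone this array was the lowest of the series for GLG1 and GLG2.

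The other genes of glycogen metabolism were taken as 23 further genes in 4 lists, and 21 or 22 of them were tested in each series. Of these, 7 were higher and 3 lower after thermal neutrons (of 22), 4 higher and 1 lower after carbon ions, 9 higher and 1 lower after gamma rays, and 1 higher and 2 lower after fast neutrons (of 21 each). Among all genes tested, 19.9%, 9.70%, 17.6% and 5.06% were called higher in that order, and 21.2%, 11.9%, 22.4% and 5.92% lower. The further genes had median log2 ratios of 0.02, 0.24, 0.20 and 0.13 in that order. These lay nearer to those of all genes than the medians of the 10 core genes did.

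In the sugar supply list the hexose kinases went different ways. GLK1, glucokinase, had log2 ratios of 1.78, 1.66 and 2.10 after thermal neutrons, 0.82, 1.09 and 0.91 after carbon ions, and -0.16, -0.22 and 0.06 after gamma rays. The 3 groups did not overlap and were in the reverse of the order of GDB1. GLK1 rose after thermal neutrons (1.85, limma adjusted p = 2.8e-06) and carbon ions (0.94, adjusted p = 0.000727), was at -0.10 after gamma rays (adjusted p = 0.536), and was higher after thermal neutrons than after gamma rays by 1.95 (adjusted p = 2e-05).

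HXK1, a hexokinase made when glucose is scarce, had log2 ratios of -0.98, -0.93 and 0.92 after thermal neutrons, 1.55, 1.67 and 0.94 after carbon ions, and 1.30, 1.14 and 1.04 after gamma rays. Its first 2 thermal arrays were low and the third high, as for GLG1 and GAC1. It rose after carbon ions (1.39, limma adjusted p = 0.00925) and gamma rays (1.16, adjusted p = 0.00994) and not after thermal neutrons (-0.33, adjusted p = 0.397). HXK2, the hexokinase of glucose-grown cells, fell by 0.64 after thermal neutrons (adjusted p = 0.000775) and by 0.77 after fast neutrons (adjusted p = 0.0481). PGM1, the minor phosphoglucomutase, fell by 0.60 after fast neutrons (adjusted p = 0.041), and UGP1, which makes UDP-glucose, passed in no series.

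Of the phosphatase list, GIP2, another Glc7-binding subunit, rose in 3 series, by 0.68 after thermal neutrons, 0.62 after carbon ions and 0.75 after gamma rays (limma adjusted p = 0.00601, 0.0198 and 0.00358). PIG1, related to GAC1, rose by 0.40 after thermal neutrons and 0.64 after gamma rays (adjusted p = 0.0282 and 0.00265). It was at 0.71 after fast neutrons, positive on all 3 arrays, without passing (adjusted p = 0.0615). GLC8, a modulator of Glc7, rose by 1.22 after thermal neutrons and 0.75 after fast neutrons (adjusted p = 1e-04 and 0.0329), and was at 0.24 and 0.17 after carbon ions and gamma rays. GLC7 itself, the catalytic subunit, fell by 0.46 after gamma rays (adjusted p = 0.00987).

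The list of 13 kinases, cyclins and their partners, many of which act on the synthase or its regulators, had 2 of 12 higher and 2 lower after thermal neutrons, 0 and 1 of 11 after carbon ions, 5 and 0 of 11 after gamma rays, and 0 and 0 of 12 after fast neutrons. Among all genes tested, 19.9%, 9.70%, 17.6% and 5.06% were called higher in that order, and 21.2%, 11.9%, 22.4% and 5.92% lower. At an unadjusted p under 0.05, PHO85 and PSK1 were higher after carbon ions, and after fast neutrons PCL8 was higher and SNF4 and TPK3 lower. PSK1, a PAS kinase that phosphorylates glycogen synthase, rose by 0.38 after thermal neutrons and 0.72 after gamma rays (limma adjusted p = 0.0272 and 0.00108). PCL7 and PCL8, cyclins of the Pho85 kinase, rose by 0.52 and 0.54 after gamma rays (adjusted p = 0.0107 and 0.0149). SNF4, the activating subunit of the Snf1 kinase, fell by 0.72 after carbon ions (adjusted p = 0.0208). SGA1, the glucoamylase that degrades glycogen in sporulating cells, rose by 1.39, 0.70 and 0.94 after thermal neutrons, carbon ions and gamma rays (adjusted p = 0.000186, 0.0215 and 0.00237). On the fast neutron arrays it had 0.13 and 0.08, with 1 array missing.

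**Figure D4:**
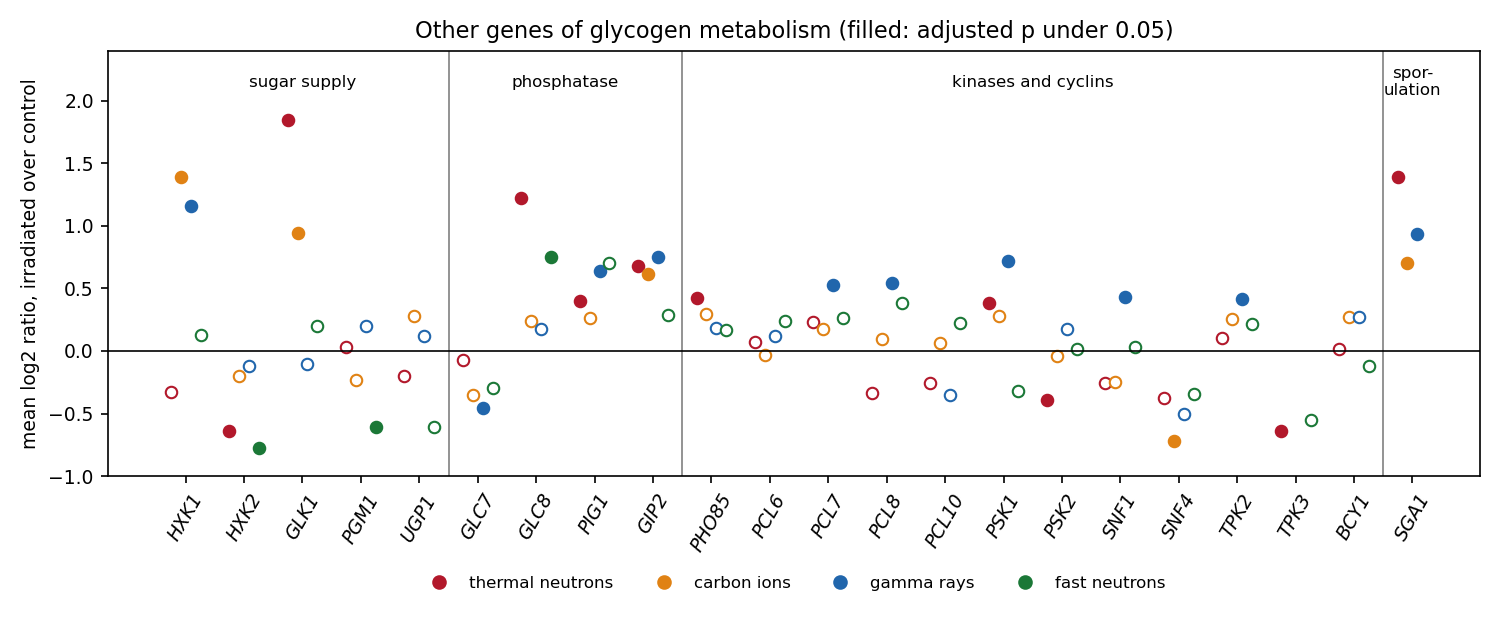
Mean log2 ratio of irradiated over control (vertical axis) of 22 further genes of glycogen metabolism (horizontal axis), grouped by list, for the 4 radiations. Filled points have a limma adjusted p under 0.05 and open points do not. GLK1 is at 1.85 after thermal neutrons and near 0 after gamma rays, and HXK1 is at 1.16 after gamma rays and -0.33 after thermal neutrons.

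Trehalose, the other storage carbohydrate of yeast, is made from the same precursors. Of its 7 genes, 6 were higher after thermal neutrons, 3 after carbon ions, 5 after gamma rays and 0 of 6 after fast neutrons. Among all genes tested, 19.9%, 9.70%, 17.6% and 5.06% were called higher in that order. No trehalose gene was called lower in any series, and none of the 6 had an unadjusted p under 0.05 after fast neutrons. The synthase subunit gene TSL1 averaged 1.35 after thermal neutrons, 0.61 after carbon ions and 0.38 after gamma rays, all called (limma adjusted p = 2.5e-05, 0.00793 and 0.0348). It was higher after thermal neutrons than after gamma rays by 0.98 (adjusted p = 0.00172), as was TPS1, the synthase proper, by 0.72 (adjusted p = 0.0104). The other 5 trehalose genes did not pass in this difference, and the median of the 7 was 0.01. Of all genes, 20.4% were called higher and 17.8% lower in it. In the same difference GDB1, GPH1, GLG1 and GAC1 were lower.

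The glycogen genes followed a common profile to different degrees. Over the 9 arrays of the shared table, the correlation of each gene with the mean of the other 8 was 0.95 for GAC1 and GLG1, 0.88 for GLC3, 0.85 for GSY1, 0.82 for PGM2, 0.68 for GDB1, 0.51 for GPH1, 0.45 for PIG2 and -0.10 for GLG2. The arrays share a table and fall into 3 series, so these values describe the profile and carry no p. Of 4694 genes measured on all 9 arrays, those closest to the mean profile of the 9 were VHS1 (r = 0.986), GIS1 (0.959), RRT13 (0.959), ISF1 (0.958), MPF1 (0.955), YJL213W (0.949), SMP1 (0.946) and YKL162C (0.946). Of these 8, VHS1, ISF1 and MPF1, are also among the 20 genes with this split. After thermal neutrons all 8 averaged below 0, from -1.29 for MPF1 to -0.12 for YKL162C. The mean profile of the 9 glycogen genes was above 0 on each thermal array (0.31, 0.23 and 1.22). On the fast neutron arrays ISF1 averaged 1.32 and GIS1 -0.27, with the other 6 between -0.12 and 0.68.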

How the data were processed

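The authors deposited log2 ratios of the Cy5 over the Cy3 channel for each scan, LOWESS-normalised from spots with flag value 0, per the labels. The log base was read from the values. The 9 arrays of thermal neutrons, carbon ions and gamma rays share a table, and the 3 fast neutron arrays, of another type, come in a second, each with 6912 probes. One gene symbol was carried by 5446 probes of the first and 5513 of the second, and none by 1466 and 1399. The 9 neutron and carbon arrays had high- and low-power scans, which were averaged, as were probes of 1 gene. Scanner files, merged values and gene sequences were not used here.

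Mean log2 ratios were tested against 0, and differences between radiations of the first table by contrasts, with limma 3.58.1 (lmFit and eBayes, R 4.3.3), two-sided. The 9 arrays shared 1 estimate of the spread. Genes with a value on all arrays concerned were tested, and p-values were adjusted over all of them by Benjamini-Hochberg, with 0.05 as threshold. Scripts were tested on simulated data. Replicate numbers were not used to pair arrays. No floor, weight or imputation was applied. The number of arrays limits the precision. Since replicates are independent collections only by the design text, p-values measure the spread between these arrays.

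The 10 genes, the lists of pathway genes and the tests were chosen with earlier results of these data known. All 10 genes were named, then at most 4 genes of each list by smallest p over the tests against 0 in the first table (lists of up to 7 genes may be given in full), and the 8 genes with the highest Pearson r to the mean profile. Genes outside this rule (PHO85, TPK3, HUG1, RNR2 and those of the array split) were named after their values were seen. Alternatives were either scan alone, median centring, equal spread, array weights, only the arrays compared, the replicate block, 1 probe per gene, genes with at least 2 arrays, and leaving out each array. Leaving out the third arrays of carbon ions and thermal neutrons and using the low-power scan of the second fast neutron array were chosen after seeing the data.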

Additional observations from a re-analysis of the deposited data

Results flagged for a closer look

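In 7 cases a glycogen gene had a different log2 ratio after 2 radiations by the limma test of the difference itself. Thermal neutrons minus gamma rays was -2.85 for GAC1, -2.06 for GLG1, -1.60 for GDB1 and -0.89 for GPH1. Carbon ions minus gamma rays was -0.91 for GDB1 and -0.90 for GPH1. Thermal neutrons minus carbon ions was -0.69 for GDB1. Of 9 glycogen genes tested, 4, 2 and 1 were thus called lower in these differences, in that order. Among all genes tested, 17.8%, 9.35% and 4.37% were called lower, and 20.4%, 11.4% and 5.80% higher. Whether the glycogen genes differ from all genes in this was not tested. For GAC1 and GLG1 the thermal mean joins 2 arrays below 0 with 1 above it, and without the third carbon and thermal arrays their differences from gamma rays were -3.43 and -2.73. The part that vessel, holding time, dose or facility has in these differences cannot be told apart from the radiation.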

How the results depend on the processing

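Of 890 values of single glycogen genes under the alternatives, 802 kept their side of the threshold, 39 lost a call and 49 gained a call. Of the called values, 0 changed sign. Values that were not called count among the 802 even where their sign changed. An example is GSY1 in carbon ions minus gamma rays, at -0.60, and at 0.24 without the third arrays of carbon ions and thermal neutrons. After gamma rays, GSY1, GLC3, GDB1, GPH1, GLG1, GAC1 and PGM2 stayed called under every alternative run, as did GDB1 and GPH1 after carbon ions, GPH1 after thermal neutrons, all 4 thermal minus gamma ray calls and GDB1 in carbon ions minus gamma rays. Replicate numbers did not pair the arrays (residual r from -0.26 to 0.13 in 9 pairs, with 2 of 9 arrays closest to their own number). With the replicate block, 0 glycogen genes were lower in thermal neutrons minus carbon ions (GDB1 adjusted p = 0.0635), and after thermal neutrons GSY1 (0.0521) and after carbon ions GSY1 (0.0513) and GAC1 (0.0804) lost their calls. All genes called numbered 2180 after thermal neutrons, 1102 after carbon ions, 1957 after gamma rays and 542 after fast neutrons, and 512 in thermal minus carbon and 986 in carbon minus gamma. These totals of genes called, and those that follow, count both directions. With the high-power scans alone, 0 glycogen genes were higher after fast neutrons and 38 genes were called (26.3% of them higher, against 46.1%). With the low-power scans alone, 0 were lower in thermal minus carbon, and 3 were higher and 1303 genes called after fast neutrons. With equal spread, 1672 genes were called after carbon ions, 937 after fast neutrons, and 1 glycogen gene was lower in carbon minus gamma. With array weights, 2 glycogen genes were lower after thermal neutrons, 2160 genes were called after carbon ions, 1668 in carbon minus gamma, and 1487 in thermal minus carbon, where 5 glycogen genes were lower; after fast neutrons 3 were higher, 2 lower and 1633 genes called. With only the arrays compared, 2 were higher and 404 genes called after carbon ions (55.9% higher, against 44.8%), and 0 were lower in thermal minus carbon. Without the third arrays of carbon ions and thermal neutrons, 2 were lower after thermal neutrons (1571 genes called), 7 in thermal minus gamma (1747, against 1849) and 5 in thermal minus carbon (607). With the second fast neutron array from its low-power scan, 3 were higher and 1300 genes called. Leaving out 1 array at a time gave 1 to 6 higher and 0 to 1 lower glycogen genes after thermal neutrons (1445 to 1492 genes called), 3 to 7 higher after carbon ions (371 to 1053 genes), 0 to 3 higher and 0 to 2 lower after fast neutrons (62 to 1652 genes), 0 to 3 lower in thermal minus carbon (193 to 574 genes) and 1 to 2 lower in carbon minus gamma (540 to 839 genes). The causes were not tested.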

Other observations

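The 20 genes that lay more than 1 above both other arrays on the third thermal array and more than 1 below both others on the third carbon array, on the log2 scale, were picked after their values were seen and have no test. Beside GSY1, GLC3, GLG1 and GAC1 they include MTH1, a repressor of hexose transporter genes, HAP4, an activator of respiratory genes, MAL31, a maltose permease, and ISF1. MTH1 had log2 ratios of -1.80, -2.11 and 0.14 after thermal neutrons, 1.93, 2.16 and 0.52 after carbon ions, and 0.22, 0.63 and 1.20 after gamma rays. HAP4 had -1.19, -1.15 and 0.22 after thermal neutrons, 1.13, 1.06 and -0.20 after carbon ions, and 1.06, 0.67 and 0.79 after gamma rays. MAL31 had -1.97, -1.82 and -0.51 after thermal neutrons, 1.50, 1.23 and -0.51 after carbon ions, and 1.41, 1.55 and 1.98 after gamma rays. The thermal gap was seen in 59 genes in all, these 20 included, and the carbon gap in 51.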
